A study of Mus musculus with 6 samples.

Results

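The 10 genes described here encode synaptic and trophic effectors that neurons switch on when they fire: *Arc*, *Plk2*, *Homer1*, *Npas4*, *Ptgs2*, *Bdnf*, *Nptx2*, *Nrn1*, *Vgf* and *Scg2*. They were picked by symbol from the 22322 genes of the deposited table, and all 10 were among the 14188 genes that passed the filter on low counts. In the arcuate nucleus of male mice on a high-fat diet, *Arc* stood at 32.7% of its level on normal chow, and *Plk2* at 60.8%, with no overlap between the diets in either gene, a pattern shared by 3.24% of all genes tested in that direction. *Homer1*, *Bdnf*, *Nptx2*, *Nrn1*, *Vgf* and *Scg2* differed between the diets by less than 0.3 on the log2 scale, with intervals that held 0. *Npas4* and *Ptgs2*, the least abundant of the set, had intervals that held 0 and samples that overlapped between the diets.

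The samples were pieces of the arcuate nucleus (ARC), a hypothalamic region beside the third ventricle that controls feeding and, through its Kiss1 neurons, the release of gonadotropins. Male mice were put at 4 weeks of age on chow with 16.5% fat (normal chow diet, NCD) or on food with 60% fat (high-fat diet, HFD), which they ate for 16 weeks, and the nucleus was cut by laser from 20 μm frozen brain sections. The diet was the only difference the study describes between the groups. Messenger RNA was selected on oligo(dT) beads and sequenced, with 3 samples per diet, called NCD1 to NCD3 and HFD1 to HFD3 here after the numbers in their labels. The study used wild-type C57BL/6J mice, and mice carrying Kiss1-Cre and R26R-EYFP, which mark Kiss1 neurons, to locate the region. Which of these strains gave the sequenced tissue, whether a sample is 1 mouse or a pool, and the time of day and handling before death are not given in the sources used here. The p-values therefore measure only the spread between these samples. Bulk tissue gives 1 value per gene and sample, so fewer cells of a type and less RNA per cell cannot be told apart.

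When a neuron fires, calcium enters through NMDA receptors and voltage-gated channels and activates kinases that phosphorylate transcription factors such as CREB and SRF. Within minutes these switch on early transcription factors of the Fos, Egr and Nr4a families, and they, together with CREB, drive effector genes whose products act at the synapse or are secreted. Some effectors, *Arc* among them, are copied as fast as the early factors, while others keep a high basal level in neuroendocrine cells and rise only modestly with activity. In the hypothalamus such genes are used as markers of recently active neurons.

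CREB binds the palindrome TGACGTCA, the cAMP response element, and more weakly its shorter form TGACG or, on the other strand, CGTCA. RefSeq promoter windows (250 bases before to 50 after a start site, mouse build GRCm38.p6) were at hand for 6 of the 10 genes: *Scg2*, *Plk2*, *Bdnf*, *Homer1*, *Npas4* and *Ptgs2*, with 13 windows in all, 7 of them from *Bdnf*. *Arc*, *Nptx2*, *Vgf* and *Nrn1* had no entry. The stretches that hold the element before the start site are shown 5′ to 3′ along the gene's strand, because they are the sequence by which these genes are thought to read calcium and cAMP signals. Capitals mark each match to the full element or to the shorter form on either strand. By the GENCODE annotation, which can place the first exon further upstream than RefSeq, the *Plk2* stretch lay outside the gene, those of *Bdnf* and *Homer1* lay in introns before internal start sites, and those of *Scg2* and *Npas4*, cut to 28 bases here, lay in the first exon.
*Scg2*, chr1:79440075-79440102, minus strand: tgagccggTGACGTCAgcgtggaatgcg
*Plk2*, chr13:110394942-110395041, plus strand: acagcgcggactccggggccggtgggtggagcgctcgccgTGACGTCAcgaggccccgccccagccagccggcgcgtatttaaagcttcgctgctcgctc
*Bdnf*, chr2:109692361-109692435, plus strand: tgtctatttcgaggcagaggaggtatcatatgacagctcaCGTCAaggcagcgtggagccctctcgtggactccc
*Homer1*, chr13:93303661-93303756, plus strand: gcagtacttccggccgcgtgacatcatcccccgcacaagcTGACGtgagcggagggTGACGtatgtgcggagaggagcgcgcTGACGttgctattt
*Npas4*, chr19:4990131-4990158, minus strand: ccgttcgaCGTCAcgggaTGACGtcgga

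The full element TGACGTCA stood 68 bases before the start of *Scg2* and 62 bases before that of *Plk2*, and in no other window of the effectors. Among all 11048 tested genes with a window, 3.48% held it. The shorter form, which every full element contains on both strands, occurred in at least 1 window of each of the 6 genes, against 34.0% of tested genes. *Bdnf*, with 7 windows, had more chances of a match than a gene with 1. Counted by window, the shorter form was in 6 of 13 (46.2%) against 29.2% of the 14195 windows of tested genes. It was also in 8 of 9 early transcription factors with a window (10 of 13 windows, 76.9%). Of 10 other activity-induced effectors with a window, 5 held it. In *Ptgs2* the match lay 13 bases after the start and is not shown. The 2 genes with the full element parted in the data, since *Plk2* was separated by diet while the log2 change of *Scg2* was the nearest to 0 of the set. A match describes the letters of the window and says nothing of whether a factor was bound in these samples.

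The libraries held 15925648, 9937632 and 6882449 counts in NCD1, NCD2 and NCD3, and 8024664, 10479778 and 5171381 in HFD1, HFD2 and HFD3. A gene with 3 counts, the most that a count of 0 allows, thus corresponds to 0.181 CPM (counts scaled to a common library size with TMM factors) in NCD1 and to 0.564 CPM in HFD3. These limits cover counting error only. The arcuate label was set against 10 markers of its neurons, whose summed level was 1317, 2302 and 1585 CPM in the NCD samples and 1965, 1842 and 2231 CPM in the HFD samples (exact permutation test, two-sided, p = 0.5). *Pomc*, the precursor of melanocortin peptides, had the highest mean of them on NCD (756 CPM), *Cartpt*, another feeding peptide precursor, had the highest on HFD (919.8 CPM), and *Kiss1* was at 0 in NCD1 and HFD1, which allows up to 0.181 and 0.373 CPM there. By the mean difference 9 of the 10 were higher on HFD (median log2 change 0.31). *Cartpt* was 1.68-fold higher with no overlap between the diets, in the direction opposite to *Arc*, and did not pass edgeR's adjusted threshold. HFD3 stood apart from the other samples in a marker of other neurons. *Slc17a7*, the vesicular glutamate transporter of cortical and hippocampal neurons, reached 11.1 CPM there, against 0 to 0.394 CPM in the other 5 samples. Without HFD3 the log2 changes of *Arc*, *Plk2* and *Homer1* were -1.60, -0.57 and -0.24, those of *Bdnf*, *Nptx2* and *Nrn1* were 0.13, 0.27 and 0.34, and those of *Vgf* and *Scg2* were 0.055 and 0.037. *Bdnf* and *Scg2* thus changed sign.

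*Arc* (chromosome 15:74669083-74672570, minus strand, GRCm38) encodes a cytoskeleton-associated protein that removes AMPA receptors from the synapse and whose mRNA travels to active dendrites. It was read 462, 389 and 165 times in NCD1, NCD2 and NCD3, and 88, 96 and 52 times in HFD1, HFD2 and HFD3. Normalized for library size, these were 27.8, 39.6 and 24.8 CPM on NCD and 10.9, 9.46 and 9.78 CPM on HFD. Every HFD sample lay below every NCD sample, and the HFD samples were close to one another. The mean fell from 30.7 ± 7.81 CPM (SD, n = 3) to 10.1 ± 0.775 CPM, a 3.06-fold difference. On the log2 scale the fitted change was -1.61 (SE 0.25, 95% interval -2.15 to -1.07), with a Benjamini-Hochberg adjusted p of 0.0459 from edgeR's quasi-likelihood test over all genes. *Arc* was 1 of 8 genes at an adjusted p under 0.05, which is 0.0564% of the genes tested (0.0493% lower and 0.00705% higher on HFD), and the last of the 8 by p. Of the 10 effectors only *Arc* was called in this way. Since the set was chosen with results of this contrast known, the count supports nothing about the set.

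The call on *Arc* depended on the samples kept. Its direction was lower on HFD in all 15 alternative fits, with log2 changes from -1.74 to -1.34, but the adjusted p ranged from 4.71e-05 to 0.541. Leaving out NCD2, the sample with the highest *Arc*, gave a log2 change of -1.39 and an edgeR adjusted p of 0.541. Without NCD3 the edgeR adjusted p was 0.0145, and without NCD1, HFD1, HFD2 or HFD3 it was 0.0702, 0.277, 0.198 or 0.270.

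*Plk2* (chromosome 13:110395046-110400844, plus strand), a polo-like kinase that weakens overactive synapses by marking a postsynaptic scaffold for breakdown, was the other gene whose diets did not overlap. Its levels were 102, 87.9 and 68.0 CPM in NCD1 to NCD3 and 55.2, 60.5 and 41.0 CPM in HFD1 to HFD3. The gap between the diets ran from HFD2 to NCD3, and HFD3 was the lowest sample. The means were 86.0 ± 17.1 and 52.2 ± 10.1 CPM (SD, n = 3), with a log2 change of -0.72 (SE 0.22, interval -1.20 to -0.23). This did not pass edgeR's test after adjustment over all genes (Benjamini-Hochberg adjusted p = 0.999). By the looser thresholds of the study, an unadjusted p under 0.05 and more than 1.5-fold, *Arc* and *Plk2* were the effectors that passed, where 1.90% of all genes did (0.888% lower and 1.01% higher on HFD). *Plk2* fell short of 1.5-fold without HFD3 (log2 change -0.57) and with depth as a covariate (-0.49). Of all genes tested, 3.24% were lower on HFD in every sample than in any NCD sample, and 3.24% were higher.

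*Homer1* (chromosome 13:93299635-93405129, plus strand) encodes a postsynaptic adaptor that ties metabotropic glutamate receptors to scaffold proteins, with a short activity-induced form that uncouples them. It measured 59.6, 47.0 and 60.5 CPM on NCD and 45.1, 49.4 and 51.9 CPM on HFD. The diets overlapped, since NCD2 lay below HFD2 and HFD3. The log2 change was -0.19 (SE 0.20, interval -0.62 to 0.23). The table counts *Homer1* per gene, so the short and long forms were not measured apart. With a span of 105495 bases it is by far the longest gene of the set, most of which are compact. The median span was 7578.5 bases for the 10 genes and 25433.5 bases for 14172 tested genes with an annotation, and 8 of the 10 lay below that median.

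*Npas4* (chromosome 19:4984355-4990316, minus strand) is the transcription factor of the set, induced selectively by calcium entry and known for adjusting inhibitory synapses. Its counts were 14, 23 and 10 in NCD1 to NCD3 and 2, 1 and 10 in HFD1 to HFD3, or 0.843, 2.34 and 1.505 CPM against 0.249, 0.0986 and 1.88 CPM. HFD1 and HFD2 were at or under 3 counts, while HFD3, the library with *Slc17a7*, exceeded NCD1 and NCD3. The log2 change was -1.27 (SE 0.86, interval -3.14 to 0.60). Without HFD3 it was -3.11 (SE 0.91), which did not pass edgeR's adjusted threshold either. Without HFD2 it was -0.64, the other end of the range when 1 sample was left out, and with depth as a covariate -2.31. The part of *Slc17a7*-expressing tissue in the HFD3 value was not tested.

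*Ptgs2* (chromosome 1:150100031-150108227, plus strand), the inducible cyclooxygenase that makes prostaglandins at active synapses and in inflamed tissue, was as scarce. It was counted 52, 32 and 2 times on NCD and 11, 2 and 16 times on HFD, which is 3.13, 3.26 and 0.301 CPM against 1.37, 0.197 and 3.01 CPM. Each diet thus had 1 sample near 0, NCD3 and HFD2, and the diets overlapped throughout. The log2 change of -0.72 (SE 0.82, interval -2.51 to 1.07) became -1.62 without HFD3 and -0.13 without HFD2. The intervals of *Npas4* and *Ptgs2* hold both 0 and a fall as large as that of *Arc*.

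The secreted trophic and synaptogenic genes showed no common direction. *Bdnf* (chromosome 2:109674700-109727007, plus strand) encodes brain-derived neurotrophic factor, a ligand of the TrkB receptor that restrains feeding in the hypothalamus. It measured 30.5, 34.5 and 48.0 CPM on NCD and 36.0, 46.4 and 24.5 CPM on HFD, so that the highest and the lowest of the 6 samples carried the same replicate number in different diets. The log2 change was -0.066 (SE 0.26, interval -0.64 to 0.51). *Bdnf* shares 896 exonic bases with an antisense gene, Gm45346, which has no row in the table. The sources used here do not say whether the counting used strand.

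*Nptx2* (chromosome 5:144545902-144557478, plus strand), a pentraxin released at excitatory synapses that gathers AMPA receptors, stood at 40.6, 43.2 and 34.0 CPM on NCD and 41.6, 53.4 and 38.9 CPM on HFD. HFD2 was the only sample above 50 CPM, and the other 5 interleaved. The log2 change was 0.19 (SE 0.21, interval -0.27 to 0.64). *Nrn1* (chromosome 13:36725361-36735131, minus strand), the membrane-anchored neuritin that promotes the growth of neurites and synapses, varied widely among the NCD samples. It ran from 8.01 CPM in NCD1 through 16.5 in NCD2 to 29.8 CPM in NCD3, around HFD values of 23.9, 21.2 and 17.9 CPM. The coefficient of variation was 60.7% on NCD and 14.3% on HFD, and the log2 change was 0.24 (SE 0.38, interval -0.58 to 1.06). It turned to -0.14 without NCD1 and reached 0.80 without NCD3. *Nrn1* shares 501 exonic bases with *Fars2* on the opposite strand, whose own log2 change was -0.079.

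The granins, packed with peptides into dense-core vesicles, had the highest mean levels of the set per transcript length, although *Vgf* and *Plk2* overlapped on NCD. *Vgf* (chromosome 5:137026392-137033351, plus strand), whose peptides act on energy balance, measured 86.3, 118 and 104 CPM on NCD and 123, 90.5 and 111 CPM on HFD. NCD1 and HFD2 were low and HFD1 and NCD2 high, with no order by diet, and the log2 change was 0.075 (SE 0.21, interval -0.38 to 0.52). *Scg2* (chromosome 1:79434669-79440120, minus strand), the precursor of secretoneurin, measured 1160, 1056 and 1214 CPM on NCD and 1093, 1257 and 1065 CPM on HFD. Its means of 1143 ± 80.4 and 1138 ± 104 CPM (SD, n = 3) gave a log2 change of -0.0061 (SE 0.21, interval -0.47 to 0.46). Read 5659 to 19272 times per sample, *Scg2* was not limited by depth, and a fall of the size of that in *Arc* lies outside its interval. The same holds for *Homer1*, *Bdnf*, *Nptx2*, *Nrn1* and *Vgf*.

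**Figure D1:**
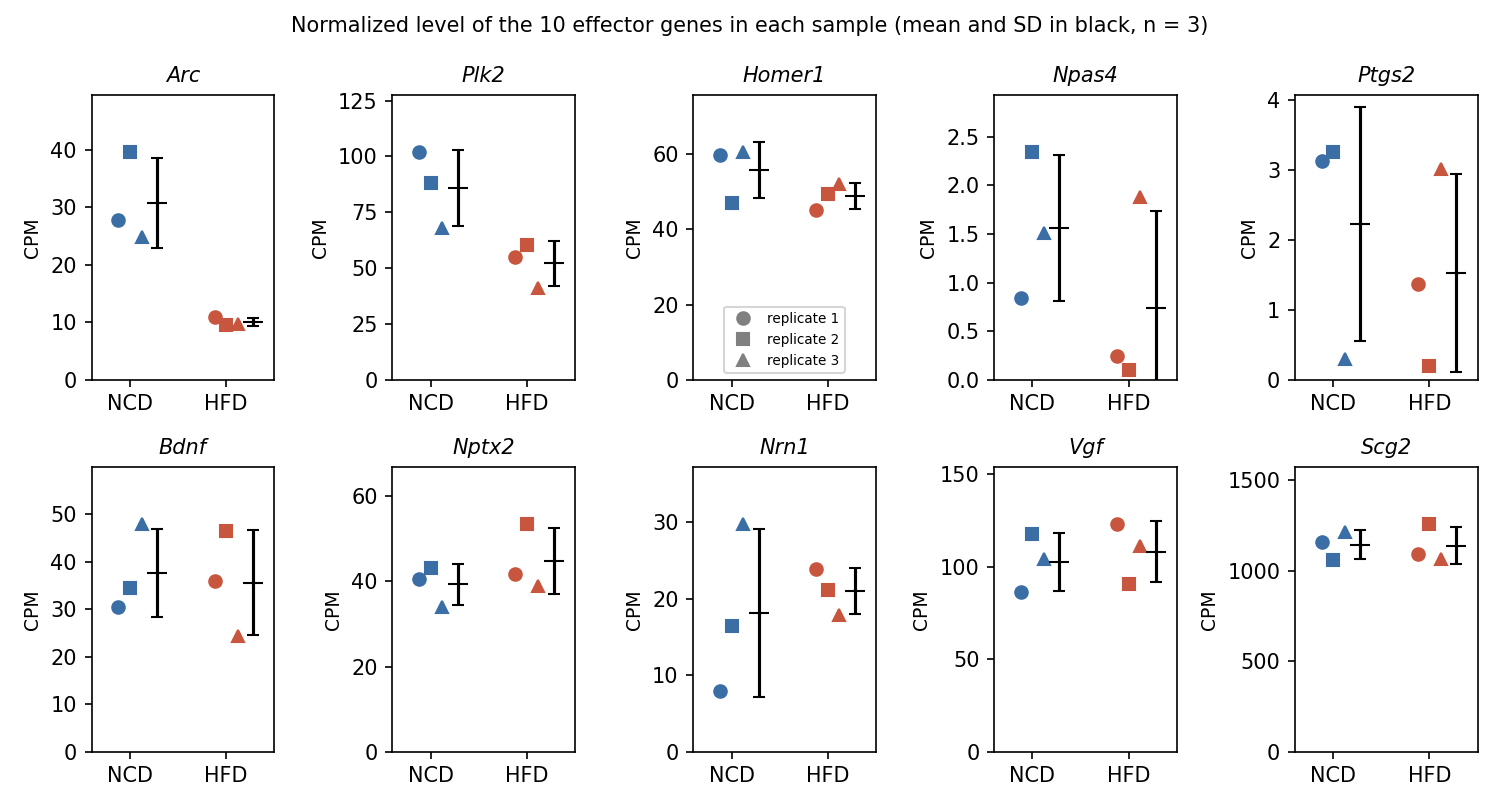
Normalized level (CPM, linear axis from 0) of each of the 10 effector genes in the NCD samples (blue) and HFD samples (red), 1 point per sample, shaped by replicate number, with the mean and SD of the 3 samples in black (the lower SD bar of *Npas4* on HFD is cut at 0). The diets separate in *Arc* and *Plk2* and overlap in the other 8 genes.

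Over the 10 genes, 7 had a negative and 3 a positive log2 change, and the median was -0.13, against 0.0032 over all genes tested, of which 49.5% were below 0. The intervals of 8 of the 10 held 0. When the whole table was refitted on genes averaging 50 counts or more, which drops *Npas4* and *Ptgs2*, *Scg2* turned to 0.0018, 4 of 8 effectors were lower and the median was -0.031. Leaving out 1 sample at a time gave 5 to 9 lower of 10, with 9 without NCD1 and 5 without NCD3 or HFD3. No sample was low across the set: the median deviation of the 10 genes from their own means ran from -0.10 in HFD2 to 0.16 in NCD3 on the log2 scale. The median coefficient of variation between replicates was 22.1% on NCD and 16.3% on HFD over the 10 effectors, and 17.6% and 14.8% over the 8 that averaged 50 counts or more. Over all 11898 genes at that level it was 19.2% and 17.0%.

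**Figure D2:**
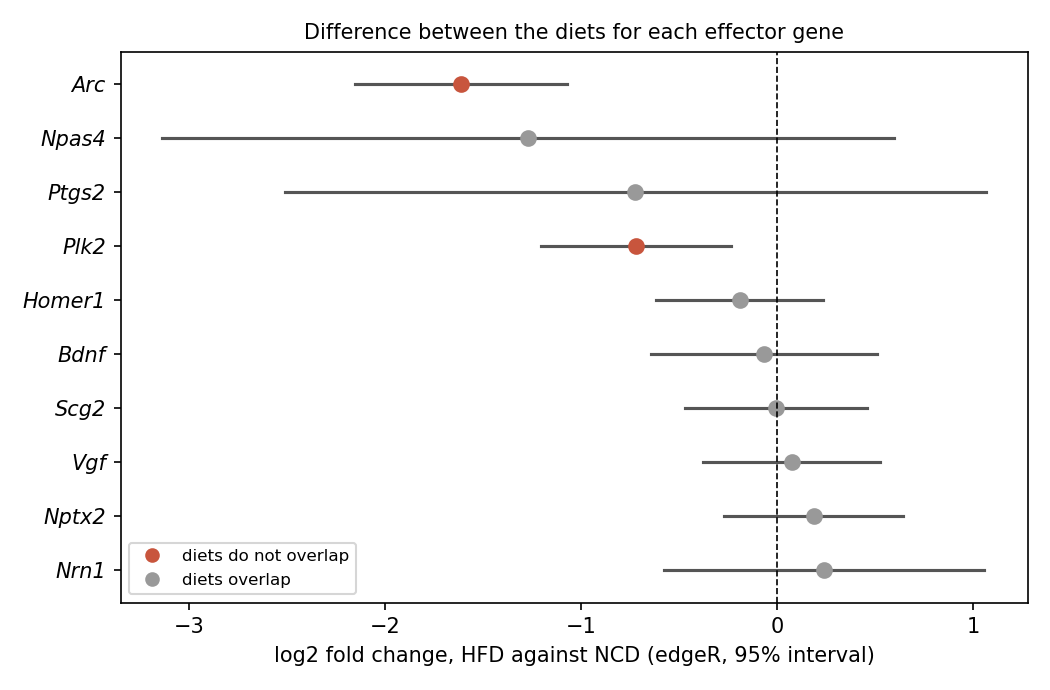
Fitted log2 fold change (HFD against NCD) of each effector gene with an approximate 95% interval derived from edgeR's test statistic, red where the samples of the diets do not overlap. The intervals of *Arc* and *Plk2* lie below 0, those of *Npas4* and *Ptgs2* are the widest, and the other 6 genes lie within 0.3 of 0.

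Levels of different genes were compared in FPKM, the deposited value that is scaled by transcript length and by library size. In NCD samples *Scg2* led with 478 ± 36.4 FPKM (SD, n = 3), among the top 1.09% of tested genes. *Vgf* followed with 40.1 ± 4.81, *Plk2* with 30.8 ± 7.27 and *Homer1* with 15.7 ± 2.80 FPKM. *Nptx2* had 15.5 ± 2.20, *Nrn1* 11.03 ± 6.47, *Arc* 10.1 ± 2.53 and *Bdnf* 9.17 ± 1.93 FPKM, while *Ptgs2* and *Npas4* had 0.507 ± 0.378 and 0.427 ± 0.201 FPKM. The samples of neighbours in this order did not overlap between *Scg2* and *Vgf*, between *Plk2* and *Homer1*, and between *Bdnf* and *Ptgs2*. The other neighbours could not be ordered beyond their spread. On HFD *Arc* stood at 3.29 ± 0.295 FPKM, below *Bdnf* with 8.68 ± 2.42 FPKM and above *Ptgs2* with 0.717 ± 0.690 FPKM, and overlapped neither of them. *Ptgs2*, lower on HFD by mean CPM, was higher by mean FPKM, with overlapping diets on both scales. *Arc* thus moved from 7th to 8th place, and *Nptx2* (17.5 ± 2.49 FPKM) and *Homer1* (12.9 ± 1.72 FPKM) changed places without overlap on HFD, while the order of the other genes was the same on both diets.

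**Figure D3:**
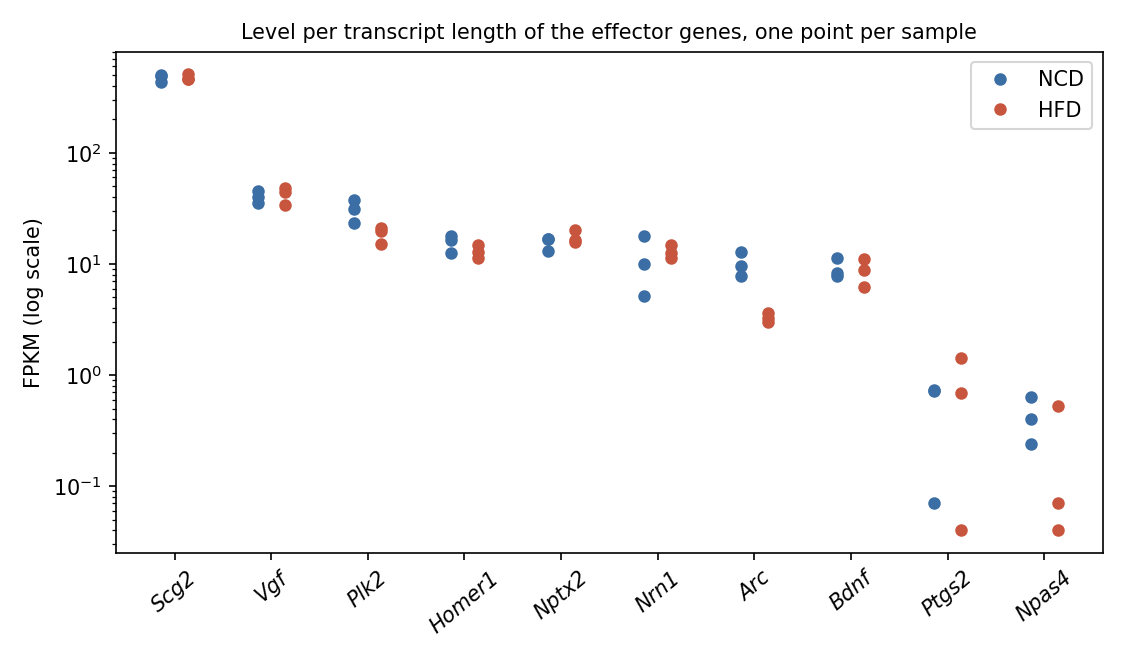
FPKM (log axis) of the effector genes in each sample, ordered by their mean on NCD, with NCD in blue and HFD in red. *Scg2* lies about 478 FPKM on both diets, *Ptgs2* and *Npas4* lie lowest, and *Arc* shows the widest gap between the diets among the genes above 1 FPKM.

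The genes whose samples moved most like those of *Arc* were sought among 11897 genes averaging 50 counts or more, by the root mean square difference between log2 CPM profiles centred on each gene's own mean, over the 6 samples. The nearest was *Junb*, an AP-1 transcription factor (0.188), followed by *Avp*, the vasopressin precursor (0.212), *Apold1*, an early-response gene of endothelial cells (0.222), *Gem*, a small GTPase that damps calcium channels (0.284), and *Dusp1*, a MAP kinase phosphatase (0.284). Their log2 changes were -1.74, -1.71, -1.59, -1.19 and -1.16, and *Junb* alone passed edgeR's test over all genes (adjusted p = 0.0136). The 6 samples of 2 diets are all that this likeness rests on. The *Arc* profile is split by diet, so the genes nearest to it are bound to be lower on HFD. Effectors with a change near 0 are likewise bound to rank far from it, so neither is a separate result. *Plk2* ranked 31st by the same measure (0.505), and the other effectors above 50 counts ranked from 2837th to 11512th.

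**Figure D4:**
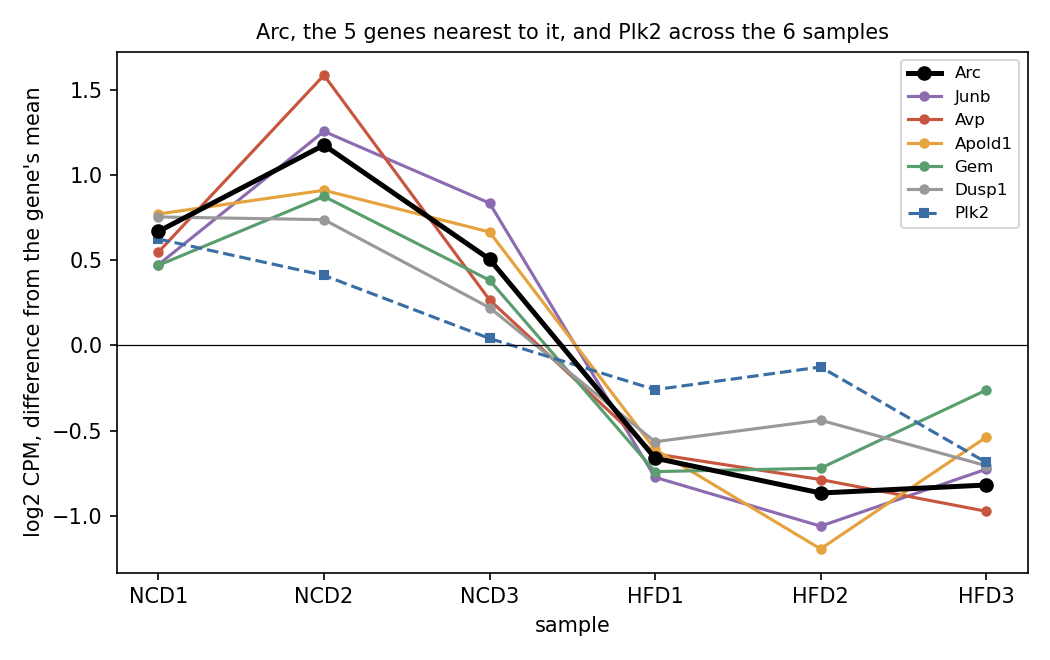
Log2 CPM of *Arc* (black), of the 5 genes nearest to it and of *Plk2* (dashed) in the 6 samples, each as the difference from the gene's own mean. All 7 genes lie above 0 in the NCD samples and below 0 in the HFD samples, *Arc*, *Junb*, *Avp*, *Apold1* and *Gem* peak in NCD2, and *Plk2* spans less. The 5 genes were picked for their nearness to *Arc*, so their split by diet follows from that choice.

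Among 5 markers of neighbouring nuclei, *Avp*, *Oxt* and *Sim1* were lower on HFD, as *Arc* was, but none of the 5 passed edgeR's adjusted threshold. The summed level of 5 markers of paraventricular and ventromedial neurons was 3019, 5934 and 2610 CPM in NCD1 to NCD3 and 1412, 1531 and 1288 CPM in HFD1 to HFD3 (exact permutation test, two-sided, p = 0.1, the smallest that 3 against 3 samples allow). *Avp* made up most of it, at 2382, 4888 and 1961 CPM against 1048, 944 and 830 CPM. *Avp*, *Oxt* and *Sim1* were each lower in every HFD sample than in any NCD sample, as were 3.24% of all genes tested. Their edgeR adjusted p-values were 0.194, 0.999 and 0.999. *Nr5a1* (log2 change -0.19) and *Fezf1* (0.019), which mark the ventromedial nucleus, overlapped between the diets. None of the 5 was at 0 in any sample, and NCD2 was highest for both *Arc* and *Avp*. Their part in the *Arc* result was not tested. Summed markers of neurons as a whole were 3487, 3720 and 3597 CPM on NCD and 3207, 3736 and 3083 CPM on HFD (exact permutation test, p = 0.4). Those of astrocytes, oligodendrocytes, microglia, vessels, tanycytes with ependymal cells and red blood cells gave exact permutation p-values from 0.6 to 0.9. Within these lists, *Gfap* of astrocytes (log2 change 0.88) and *Col23a1* of tanycytes (0.91) were higher on HFD, with overlapping diets. *Cldn5* of vessels was lower (-0.48) with no overlap, as were 3.24% of all genes. Each had an unadjusted edgeR p under 0.05, as did 2.30% of all genes, and none passed the adjusted threshold. The share of counts from mitochondrial genes was 3.20%, 4.24% and 6.57% on NCD and 4.16%, 3.51% and 5.77% on HFD (exact permutation test, p = 0.9).

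Lists of other genes place the effectors in their pathway. Of the calcium channels, kinases and transcription factors upstream, 12 of 20 had a negative and 8 a positive log2 change, with a median of -0.091. Of these 20, 0 passed edgeR's adjusted threshold and 0 had an unadjusted edgeR p under 0.05. Over all genes the shares were 0.0564% and 2.30%, so for 20 genes a count of 0 is near them. The smallest p-values belonged to *Elk1*, a partner of SRF (18.3 and 14.2 CPM on NCD and HFD, log2 change -0.36), *Grin1*, the obligatory NMDA receptor subunit (198 and 160 CPM, -0.31), and *Mef2c*, an activity-regulated transcription factor (59.0 and 74.2 CPM, 0.33). Of the early transcription factors 11 of 11 had a negative log2 change, against 49.5% of all genes, with a median of -2.07. Among them 6 passed edgeR's adjusted threshold, against 0.0493% of all genes in that direction, and 10 had an unadjusted edgeR p under 0.05, against 1.09%. The lists, like the 10 effectors, were written with results of this contrast known, so these counts are a description and support nothing about the list. *Nr4a1* went from 78.5 ± 11.9 to 11.3 ± 2.24 CPM (log2 change -2.80), *Egr2* from 9.63 ± 3.27 to 0.815 ± 0.224 CPM (-3.49) and *Fos* from 117 ± 34.7 to 22.5 ± 8.91 CPM (-2.39). *Egr2* passed the filter on low counts through its NCD samples only. Its HFD samples had 8, 9 and 3 counts, all under the filter's 1.11 CPM, so the size of its change is uncertain. *Arc* with -1.61 lay within the range of the early factors, from -3.49 in *Egr2* to -0.44, and the 6 effectors near 0 lay above all of it.

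Of 15 other activity-induced effectors, 11 had a negative log2 change and 4 a positive one, with a median of -0.26. None passed the adjusted threshold, while 5 had an unadjusted edgeR p under 0.05, 4 of them lower (1.09% of all genes) and *Inhba*, an activin subunit, higher, against 2.30% of all genes in either direction. *Sik1*, a salt-inducible kinase that holds back CREB coactivators, went from 23.3 ± 4.93 to 9.08 ± 2.11 CPM (log2 change -1.36, SE 0.28, edgeR adjusted p = 0.254). *Tiparp*, an ADP-ribosyltransferase, measured 71.2 ± 5.31 and 49.0 ± 3.22 CPM, and *Ccn1*, a matrix protein, 9.91 ± 2.07 and 5.68 ± 1.13 CPM. In this list *Sik1*, *Tiparp*, *Ccn1* and *Pcsk1*, a prohormone convertase, were lower with no overlap between the diets and *Inhba* was higher with none, where 3.24% of all genes did so in each direction.

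The receptors, binding partners, processing enzymes and paralogs of the 10 effectors had no common direction. Of 31 tested, 15 had a negative and 16 a positive log2 change, the median was 0.0099, and none passed edgeR's test adjusted or at an unadjusted p under 0.05, where 2.30% of all genes did. *Ptger1*, a prostaglandin receptor, was too low to be tested. The smallest p-values were those of *Sh3gl3*, an endophilin that binds *Arc* protein (46.5 and 64.2 CPM on NCD and HFD, log2 change 0.46), *Homer3*, a paralog of *Homer1* (4.42 and 6.80 CPM, 0.59), and *Arnt*, a dimer partner of bHLH-PAS factors (16.4 and 11.97 CPM, -0.45). The samples of each of these 3 genes overlapped between the diets.

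**Figure D5:**
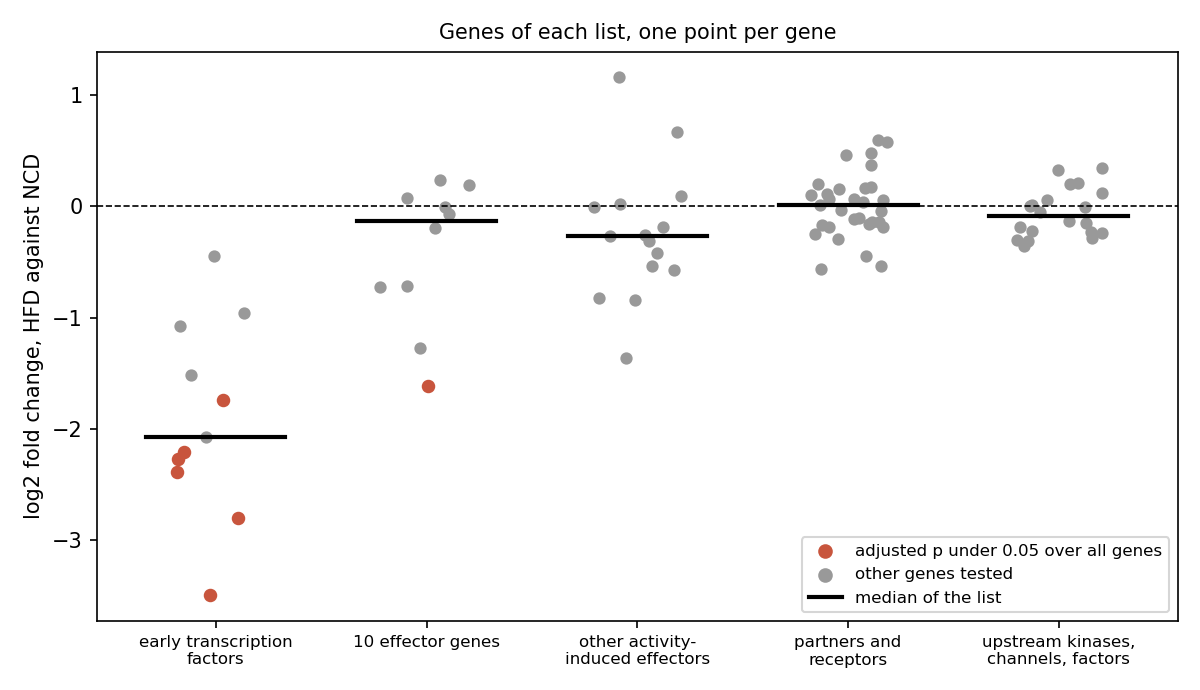
Fitted log2 fold change (HFD against NCD) of every tested gene of 5 lists, 1 point per gene, with the list's median as a bar and genes at an edgeR adjusted p under 0.05 in red. The early transcription factors lie lowest (median -2.07, 6 red), the effectors spread from *Arc* at -1.61 to *Nrn1* at 0.24, and the partners and upstream genes lie about 0.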

How the data were processed

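Per the study's methods, the authors cleaned the reads, compared them with mouse ribosomal sequences by bowtie2, aligned them with HISAT2 (build mm10 per the labels) and quantified genes with StringTie and RSEM. Versions, annotation release and strand setting are not given in the sources used here. The deposited table gives a raw read count and an FPKM value per gene and sample. Its sample names map to the diets because the deposited NCD and HFD group means equal the means of the samples titled C and H for all 22322 genes. The authors' columns of fold changes and p-values were not used. Symbols and positions came from a GENCODE annotation of GRCm38 (22267 identifiers matched).

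Counts were tested with edgeR 4.0.16 in R 4.3.3 (filterByExpr, TMM, glmQLFit and glmQLFTest, two-sided, diet only, Benjamini-Hochberg over 14188 genes), where a gene needed about 10 counts, 1.11 CPM, in at least 3 samples. *Npas4* reached that in 3 samples and *Ptgs2* in 4. Library totals ranged from 5171381 to 15925648. Alternatives used DESeq2 1.42.0, limma 3.58.1 on log2(FPKM + 1) or log2(FPKM + 0.1), other scalings and filters, a replicate block, depth as a covariate and leaving out each sample. On simulated counts for the 14188 genes, 42 of 100 genes changed by a log2 value of 1 and 97 of 100 changed by 2 were recovered, with 11 false calls. The simulation gave every gene the same spread (biological coefficient of variation 0.244) and changed only genes averaging at least 10 counts. Its recovery is therefore not that for real genes, whose spread differs. Single sums were compared by an exact permutation test over 20 assignments. The genes and lists were chosen with earlier results of these data known. Named genes are the 10 effectors, the 3 smallest p-values of each pathway list, the 5 genes nearest to *Arc* and markers. The genes *Oxt*, *Sim1*, *Nr5a1*, *Fezf1*, *Slc17a7*, *Inhba*, *Pcsk1*, *Ptger1*, *Pomc* and *Fars2* were named after their values were seen. So were *Gfap*, *Col23a1* and *Cldn5*. The summed markers of cortical and hippocampal neurons are not reported here.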

Additional observations from a re-analysis of the deposited data

How the results depend on the processing

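Over 15 alternative fits, or fewer where a filter removed the gene, *Arc*, *Plk2*, *Homer1*, *Npas4* and *Nptx2* kept their direction. *Arc* lost the adjusted threshold with library totals in place of TMM (0.0629), with genes of a mean of at least 50 counts (0.0590) and with limma on FPKM (0.160 and 0.148), and kept it with RLE factors (0.0466), with DESeq2 (4.71e-05) and with the depth covariate (0.00715). The effectors called were 1 at first and 0 in the fits where *Arc* was lost, 0 to 1 when a sample was left out. Genes called over the whole table, 8 at first, were 19 with DESeq2, 15 with a minimum of 1 count, 5 with limma on FPKM at either pseudocount, 15 with the depth covariate and 1 to 16 when a sample was left out. Effectors lower on HFD, 7 at first, were 4 with the 50-count filter and on FPKM at either pseudocount, where 8 and 9 effectors were tested, and 5 to 9 when a sample was left out. Their median became -0.031 with the 50-count filter, 0.0016 on FPKM and -0.21 to -0.042 when a sample was left out. The median of the early transcription factors was -1.51 on log2(FPKM + 1) and -2.53 with the depth covariate, and that of the partners was -0.10 on FPKM at either pseudocount. When a sample was left out, the median of the other effectors ranged from -0.45 to -0.18 and that of the upstream genes from -0.14 to 0.026. *Scg2* changed sign with the 50-count filter (0.0018), on FPKM (0.0016 at either pseudocount), with the depth covariate (0.021) and between left-out samples (-0.085 to 0.042). *Ptgs2* changed sign on FPKM (0.14 and 0.18), *Vgf* with the depth covariate (-0.031) and between left-out samples (-0.049 to 0.19), *Nrn1* between left-out samples (-0.14 to 0.80), and *Bdnf* likewise (-0.31 to 0.15). The causes were not tested. The replicate numbers were not taken as pairs. Same-numbered samples of the 2 diets correlated at -0.0116, 0.113 and 0.369, and differently numbered ones from -0.385 to 0.311. These values do not settle whether the numbers mark pairs. With the number as a replicate block, 17 genes were called, *Arc* among them at an adjusted p of 0.00338, and *Plk2* had 0.390. *Plk2* fell short of 1.5-fold with the depth covariate (-0.49) and without HFD3 (-0.57). *Npas4* and *Ptgs2* each had 2 samples at or under 3 counts, HFD2, the second deepest library, among them, and the part of depth in their spread was not tested.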
